A study of Mus musculus with 22 samples.

Results

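The comparison set wild-type granulocyte-monocyte precursors (GMP) against wild-type megakaryocyte-erythrocyte progenitors (MEP), the committed branches on either side of the common myeloid precursor (CMP). Its members were the RNA-seq libraries labelled wild type and GMP or MEP, 1 of each from mice 300, 305 and 309, that is 6 of the 22 libraries of the series. The series as a whole compared these progenitors, and long-term stem cells, between wild-type mice and mice whose blood cells lacked the chromatin remodelling subunit Arid1a. Only the 3 wild-type GMP libraries, the 3 wild-type MEP libraries and, for orientation, the 3 wild-type CMP libraries of the same mice were analysed here. The wild-type mice were C57BL/6 by their labels and Arid1a f/f;Mx1-Cre- by the methods of the study: they carried the floxed allele, backcrossed for 5 generations, without the Cre, and as sex-matched littermates of the deleted mice received the same 5 doses of 300 µg poly(I:C), an inducer of interferon, on alternate days from 8-14 weeks of age. Cells were sorted from bone marrow 4 weeks after poly(I:C), GMP as Lin-Kit+Sca1-CD34+FcγRII/III hi, MEP as Lin-Kit+Sca1-CD34-FcγRII/III- and CMP as Lin-Kit+Sca1-CD34+FcγRII/III lo. All populations therefore share the poly(I:C) exposure, and no untreated mouse was analysed here.

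In the bone marrow, GMP give rise to neutrophils, monocytes and other granulocytes, and MEP to red cells and to the megakaryocytes that shed platelets. Textbook accounts place the transcription factors C/EBPα and PU.1 at the head of the granulocytic and monocytic branch, and GATA1 with its partner FOG1 and the factor KLF1 at the head of the erythroid branch. Many blood genes also have more than 1 promoter, so that a lineage can be read from which first exon a gene uses as well as from its level.

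The 6 libraries held 41497753 to 60703872 estimated read counts, and 16619 to 16718 genes in GMP and 14919 to 15926 genes in MEP had at least 10 counts, the fewest in the MEP library of mouse 305. Levels are given in TPM, a relative abundance corrected for transcript length, always in the order of mice 300, 305 and 309, and differences as the log2 fold change of GMP over MEP, fitted on the counts with the mouse as a block, so that a negative value marks a gene higher in MEP. A gene was called at an edgeR quasi-likelihood adjusted p below 0.1 and a change of more than 2-fold. Of 16466 genes tested, 3550 (21.6%) were called higher in GMP and 1983 (12%) higher in MEP, and these shares are the background against which every count below is to be read. The median log2 fold change over all genes tested was 0.01. Differences above 8-fold were found for 1365 genes in the GMP direction and 444 in the MEP direction, and above 64-fold for 333 and 125 genes. All 3 mice agreed in sign for 3540 of the 3550 genes and 1975 of the 1983 genes. The genes higher in GMP took up 21.0% ± 2.3 of all TPM in GMP, 2.93% ± 0.36 in MEP and 13.1% ± 2.07 in CMP (SD, n = 3 mice each), and the genes higher in MEP took up 4.16% ± 0.215, 12.3% ± 0.294 and 5.85% ± 0.313. The files give no strand, so reads of a gene cannot be told from those of a gene on the opposite strand that shares its exons. Of the genes named below, the annotation shows such a partner among the tested genes for Mmp28, Mpo, Mtus1, Prtn3, Cebpa, Gfi1, Csf1r, Ncf1, Hvcn1, Myd88, Card9, Cd34, Itga4, Pklr, Sphk1, Slc25a21, Add2, Epb41, Ldb1, Lyl1, Alas1, Alas2, Cpox, Slc25a37, Orc1, Orc6, Ccne2, Cdk6, Hk1, Hk3, Pfkm, Pfkp, Pigq and Arhgdib. In sorted bulk RNA, fewer cells of a type and less RNA per cell cannot be told apart.

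**Figure D1:**
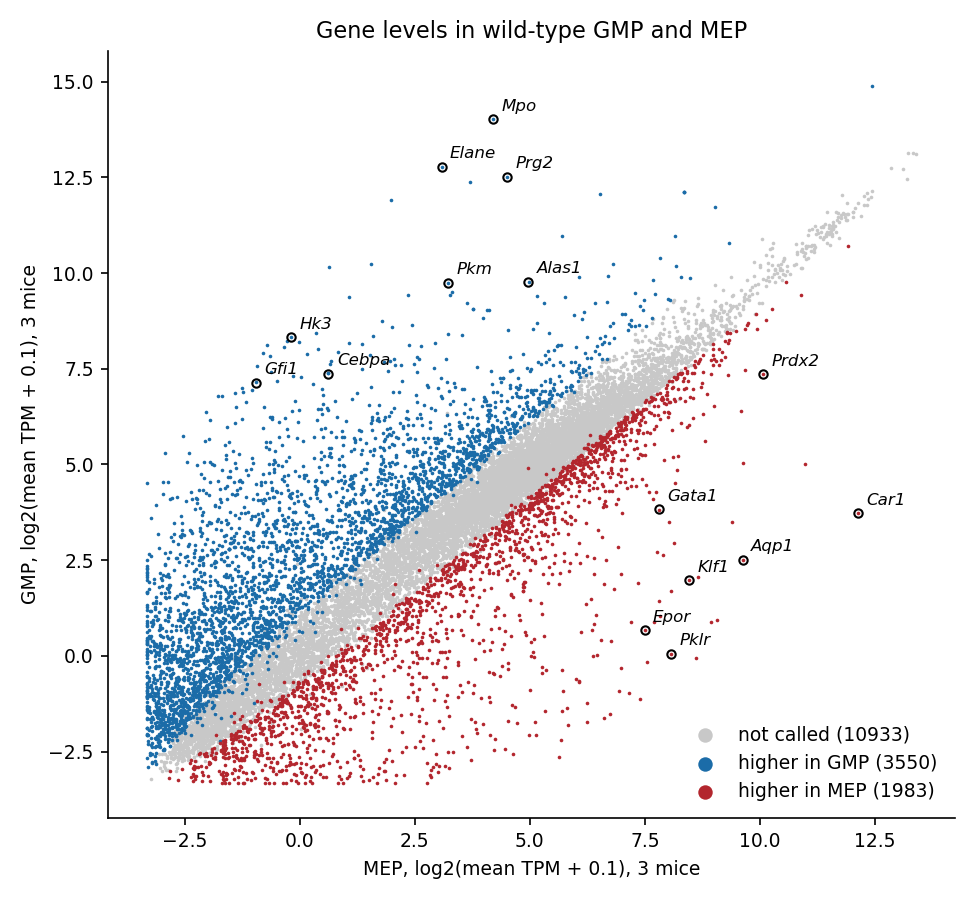
Mean TPM of each tested gene in wild-type MEP (horizontal, log axis) and GMP (vertical, log axis), 3 mice each; blue points are the 3550 genes called higher in GMP, red points the 1983 called higher in MEP and grey points the rest. Of the labelled genes, Mpo, Elane and Prg2 lie far above the diagonal, and Klf1, Epor and Pklr lie far below it.

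The CMP libraries of the same mice placed these differences, as a description without a test. For 2218 of the 3550 genes higher in GMP (62.5%) the mean CMP level lay between those of MEP and GMP, for 1249 it lay above both, and for 83 below both. For 1511 of the 1983 genes higher in MEP (76.2%) the CMP level lay between, for 137 above both and for 335 below both. On the scale of log2 CPM, the depth-corrected count, CMP stood, at the median, 84.6% of the way from MEP to GMP for the genes higher in GMP and 73.0% of the way for those higher in MEP.

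The sorted populations matched their labels for the granulocytic markers and in part for the MEP markers. All 8 GMP markers were higher in GMP, with a summed level of 36816, 34544 and 31285 TPM against 64.5, 28.1 and 50.7 TPM in MEP. Of 8 MEP markers, 5 were higher in MEP, and the other 3, Itga2b and Pf4 of the megakaryocytic line among them, were higher in GMP. Markers of B cells, T and NK cells and stroma all had mean levels under 1 TPM in both populations, while 5 of 6 neutrophil markers and 4 of 4 basophil and mast cell markers were higher in GMP, and 3 of 5 erythroblast markers were higher in MEP. The erythroblast sum was 303.5 TPM in the MEP library of mouse 305 and 118 and 117 TPM in those of mice 300 and 309, a difference between mice whose part in the erythroid results was not tested. The genes that the gates select were seen as sorted and are no finding. Cd34 was at 291, 272 and 279 TPM in GMP and 10.9, 0.742 and 3.59 TPM in MEP. Fcgr3 was at 284, 259.5 and 265 TPM in GMP and 1.01, 0.591 and 0.458 TPM in MEP. Kit, which both gates require, was at 126.5, 119.6 and 120.2 TPM in GMP and 167, 111.5 and 173 TPM in MEP. Arid1a itself was at 57.7, 78.3 and 60.5 TPM in GMP and 53.4, 51.5 and 53.4 TPM in MEP and was not called (log2 fold change 0.21 ± 0.10 (SE), adjusted p = 0.092), whereas its paralog Arid1b, at 34.1, 33.6 and 33 TPM in GMP and 12.8, 9.9 and 10.9 TPM in MEP, was higher in GMP (log2 fold change 1.62 ± 0.07 (SE), adjusted p = 1.83e-06).

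Genes of the azurophil granule, the store of antimicrobial enzymes laid down first in granulocytic cells, had the largest summed level in GMP of all gene lists, from 34881 to 41418 TPM over the 3 mice, against 569 to 702 TPM in MEP. Mpo, which encodes myeloperoxidase (ENSMUSG00000009350, chr11:87793581-87804413), was at 17429.7, 16904 and 15360.3 TPM in GMP and 24.9, 9.6 and 20.5 TPM in MEP, and CMP lay between at 2449, 2831 and 2989.8 TPM. Its log2 fold change was 9.79 ± 0.33 (SE), with adjusted p = 6.21e-07. Elane, neutrophil elastase (ENSMUSG00000020125, chr10:79886247-79888215), was at 7997, 6838 and 6237 TPM in GMP and 10.8, 5.54 and 8.76 TPM in MEP (log2 fold change 9.58 ± 0.18 (SE)). In both genes every GMP library stood far above every MEP library, and among the MEP libraries that of mouse 305 was lowest. The serine proteases Ctsg (log2 fold change 9.83) and Prtn3 (8.74) and the membrane protein gene Ms4a3 (9.49) behaved alike, and of the primary granule genes 13 of 14 were higher in GMP, 0 in MEP and 1 in neither, with a median log2 fold change of 6.44. The exception was the lysosomal protease gene Ctsd (0.07). The remaining genes among the 10 most changed in this direction were Chst13, a chondroitin sulfotransferase (10.10), Mgam, an intestinal-type alpha-glucosidase (9.79), Anxa3 (9.46), Mtus1 (9.44), the histamine-forming enzyme gene Hdc (9.23) and Mmp28, a matrix metalloproteinase. Mmp28 had 3806 counts over the GMP libraries and 2 over the MEP libraries, a depth-scaled ratio of 1663 with a 95% counting interval from 460.0 to 13736.

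Genes of the later granules, made in maturing neutrophils, were also higher in GMP but stood at far lower levels, and 13 of 14 were higher in GMP, 0 in MEP and 1 in neither, with a median log2 fold change of 2.21. S100a9, a calcium-binding protein abundant in mature neutrophils, was at 142, 28.8 and 59.4 TPM in GMP and 48.2, 13.2 and 14.2 TPM in MEP and at 146.5, 29.6 and 62.3 TPM in CMP. Mouse 300 was high in all 3 of its populations, and the GMP and MEP ranges overlapped across mice although GMP was higher within every mouse. The clearest separation within this list was that of Fcnb, ficolin B, at 16.1, 20.5 and 13.4 TPM in GMP and 0.984, 0.0432 and 0.335 TPM in MEP (log2 fold change 4.97 ± 0.55 (SE)), and of Padi4, a peptidylarginine deiminase (log2 fold change 4.15).

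Genes of the phagocyte oxidase, the enzyme complex that makes superoxide, were listed together with the proton channel gene Hvcn1. Of this list, 7 of 7 were higher in GMP, 0 in MEP and 0 in neither, with a median log2 fold change of 5.40. The cytosolic subunit gene Ncf1 was at 169.9, 165 and 164 TPM in GMP and 1.9, 0.818 and 1.53 TPM in MEP. The proton channel gene Hvcn1 was at 78.1, 70.8 and 70.9 TPM in GMP and 0.852, 0.425 and 0.399 TPM in MEP. The catalytic subunit gene Cybb was lower than its partners, at 8.17, 11.7 and 10.2 TPM in GMP and 0.218, 0.252 and 0.29 TPM in MEP, with a log2 fold change of 5.40 ± 0.26 (SE). The smallest difference was that of Cyba (1.32), which remained at 87.7, 71.4 and 80.5 TPM in MEP.

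Genes of monocytes and dendritic cells followed, where 15 of 16 were higher in GMP, 0 in MEP and 1 in neither, with a median log2 fold change of 5.81. Ly6c2, a surface antigen of monocytes, was at 1256, 1298 and 1072 TPM in GMP and 2.84, 2.54 and 3.11 TPM in MEP. F13a1, a coagulation factor subunit, was at 81.2, 159 and 114 TPM in GMP and 0.324, 0.261 and 0.399 TPM in MEP. F13a1 was about as high in CMP, at 70.2, 135 and 144 TPM, and CMP stood above both populations for 10 of the 16 genes. Among innate receptors and their signalling partners, 21 of 24 were higher in GMP, 0 in MEP and 3 in neither, with a median log2 fold change of 4.48. The lectin receptor gene Clec12a was at 372, 329 and 339 TPM in GMP and 1.19, 0.408 and 1.93 TPM in MEP. The adaptor gene Card9 was at 151, 155 and 166 TPM in GMP and 1.11, 0.917 and 0.749 TPM in MEP. In contrast to these, the adaptor gene Myd88 was at 30.1, 31.7 and 28.8 TPM in GMP and 30.1, 31.4 and 27.2 TPM in MEP and was not called. Some of the receptors rest on few reads. Tlr5, the flagellin receptor, had 73 counts over the GMP libraries and 0 over the MEP libraries, which at a floor of 3 counts over the group makes it at least 21.3-fold higher in GMP. Cd14, the lipopolysaccharide co-receptor, had 591 and 2 counts, a ratio of 258 with an interval from 71.2 to 2137. Of the genes for antigen presentation by MHC class II, 7 of 8 were higher in GMP, 0 in MEP and 1 in neither, with a median log2 fold change of 2.93, and CMP stood above both for 7 of the 8.

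Basophil, mast cell and eosinophil genes were also far higher in GMP, and 10 of 11 were higher in GMP, 0 in MEP and 1 in neither, with a median log2 fold change of 7.59. Prg2, the eosinophil major basic protein, was at 3372, 6557 and 7668 TPM in GMP and 26, 12.8 and 29.2 TPM in MEP, with CMP at only 82.9, 38.5 and 98.7 TPM. Epx, eosinophil peroxidase, was at 335, 936 and 730.0 TPM in GMP and 1.98, 0.907 and 3.13 TPM in MEP, again with little in CMP (5.88, 4.33 and 5.33 TPM). Of the basophil proteases, Mcpt8 was at 255, 258 and 391.5 TPM in GMP and 0.536, 0.665 and 0.983 TPM in MEP. Prss34 was at 162, 228 and 389 TPM in GMP and 1, 0.983 and 1.63 TPM in MEP. No member of this list was highest in CMP, in contrast to the monocyte genes, but the difference between the lists was not tested.

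Transcription factors of the granulocytic and monocytic branch were higher in GMP almost throughout, and 18 of 20 were higher in GMP, 1 in MEP and 1 in neither, with a median log2 fold change of 3.01. Cebpe, the C/EBP factor of late granulocyte development (ENSMUSG00000052435, chr14:54710360-54712174), was at 134, 128 and 120.3 TPM in GMP and 0.62, 0.113 and 0.228 TPM in MEP and barely present in CMP at 3.93, 1.83 and 3.4 TPM. Gfi1, a repressor required for neutrophils, was at 145.5, 149 and 128 TPM in GMP and 0.7, 0.235 and 0.308 TPM in MEP (log2 fold change 8.27 ± 0.13 (SE), adjusted p = 5.31e-08). Cebpa was at 169, 170.3 and 158 TPM in GMP and 1.74, 1.41 and 1.19 TPM in MEP. Spi1, which encodes PU.1, was at 220.1, 201 and 200.3 TPM in GMP and 4.86, 2.92 and 3.55 TPM in MEP. For each of these 4 genes the lowest GMP library was many times the highest MEP library. Irf8, a regulator of monocytes and dendritic cells, was at 59.6, 125 and 101 TPM in GMP and 1.47, 0.696 and 1.82 TPM in MEP and highest in CMP, at 103.5, 194 and 239 TPM. The immediate early gene Egr1 ran the other way, at 0.169, 0.552 and 1.29 TPM in GMP and 3.77, 4 and 4.41 TPM in MEP (log2 fold change -2.99 ± 0.45 (SE)).

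The erythroid and megakaryocytic factors divided, and 4 of 21 were higher in GMP, 9 in MEP and 8 in neither, with a median log2 fold change of -0.87. Klf1 (ENSMUSG00000054191, chr8:84901928-84905291) showed the largest difference at 3.97, 3.59 and 3.89 TPM in GMP and 363, 382 and 313 TPM in MEP, with a log2 fold change of -6.67 ± 0.11 (SE) and adjusted p = 6.18e-08. Gata1 (ENSMUSG00000031162, chrX:7959260-7978071) was at 14.2, 13.7 and 14.2 TPM in GMP and 224, 229 and 218 TPM in MEP (log2 fold change -4.28 ± 0.08 (SE)). Its cofactor FOG1, gene Zfpm1, was at 17.7, 16.3 and 16.8 TPM in GMP and 202, 231 and 182 TPM in MEP. Gfi1b, the paralog of Gfi1, was at 6.87, 8 and 8.12 TPM in GMP and 268, 291 and 285 TPM in MEP, so that the Gfi1 pair divided cleanly between the branches. Gata1 kept a low but steady level in GMP in each mouse. Members of the complex that GATA1 joins showed smaller differences. Tal1 was at 31.9, 28 and 27.3 TPM in GMP and 138, 129.7 and 114 TPM in MEP, and Ldb1 was at 119, 113 and 114 TPM in GMP and 473, 439 and 469 TPM in MEP. Both were higher in MEP without overlap. Lmo2 was at 347, 345 and 336 TPM in GMP and 534, 489 and 485 TPM in MEP and was not called. Gata2 was at 85.3, 73.9 and 90 TPM in GMP and 73.8, 61.8 and 56.2 TPM in MEP, was not called either, and was highest in CMP at 284, 253 and 231 TPM. Fli1, an ETS factor of megakaryocytes, was at 44.8, 39.6 and 41.3 TPM in GMP and 3.02, 1.37 and 2.11 TPM in MEP and was higher in GMP (log2 fold change 4.23 ± 0.18 (SE)), as were Lyl1 (1.15) and Meis1 (1.86), and Meis1 was highest in CMP.

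**Figure D2:**
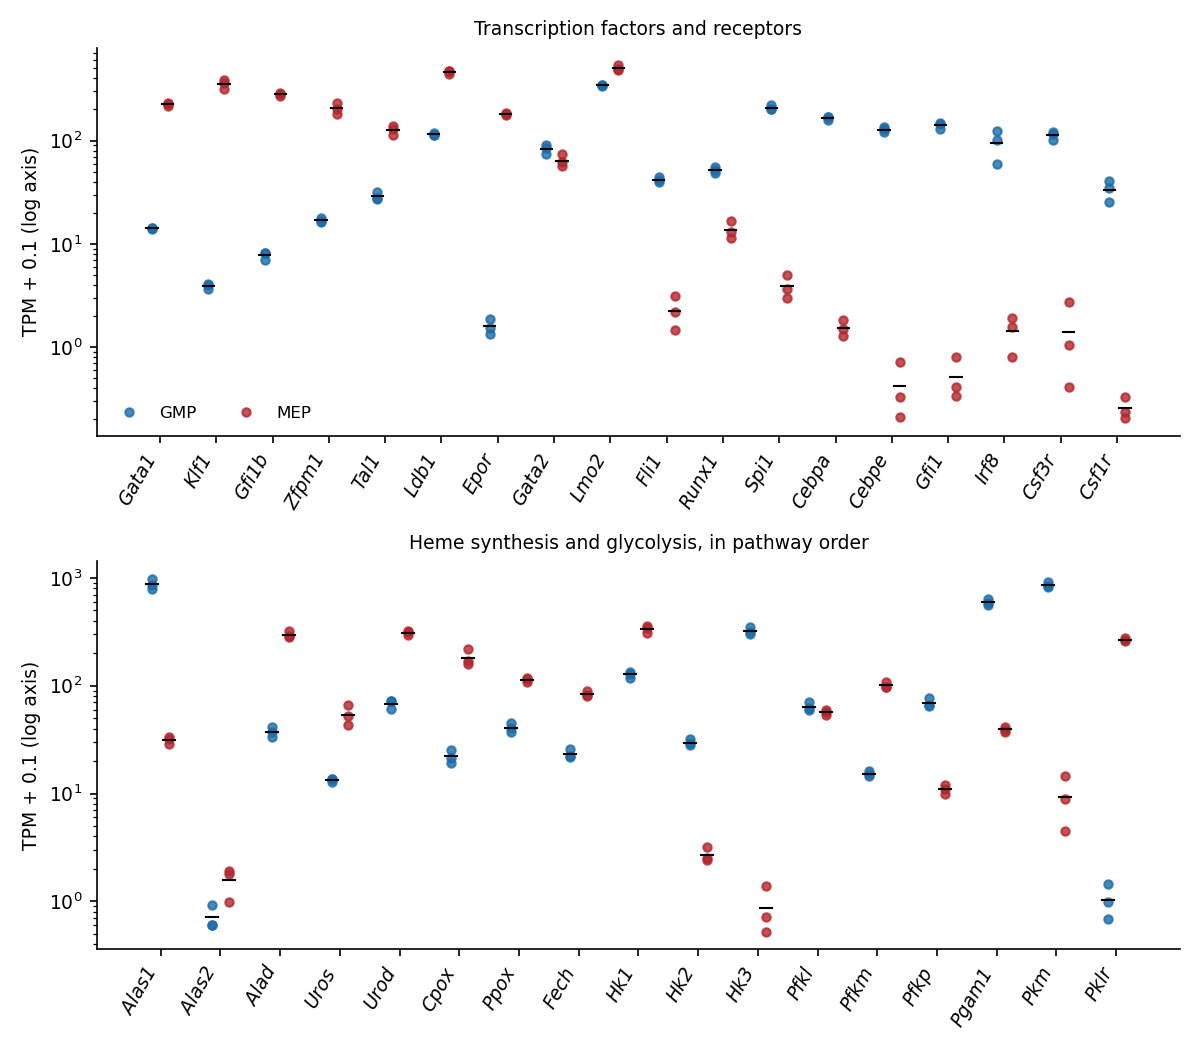
TPM + 0.1 of single libraries (log axis) for transcription factors and receptors (upper panel) and for enzymes of heme synthesis and glycolysis (lower panel); blue points are the 3 GMP libraries, red points the 3 MEP libraries and black bars their means. Gata1 to Epor lie higher in MEP, Spi1 to Csf1r lie higher in GMP, and Alas1 lies higher in GMP while the enzymes from Alad to Fech lie higher in MEP.

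Growth factor receptors of the granulocytic and monocytic branch were mostly higher in GMP, while those of the erythroid and megakaryocytic list divided. Epor, the erythropoietin receptor (ENSMUSG00000006235, chr9:21958897-21963506), was at 1.78, 1.45 and 1.25 TPM in GMP and 180.0, 185 and 175 TPM in MEP, with CMP at 32, 33.6 and 27.9 TPM and a log2 fold change of -7.06 ± 0.12 (SE). Csf3r, the G-CSF receptor, was at 115, 121 and 101 TPM in GMP and 2.66, 0.316 and 0.943 TPM in MEP. Csf1r, the M-CSF receptor, was at 25.2, 40.2 and 34.3 TPM in GMP and 0.227, 0.105 and 0.139 TPM in MEP. Of the granulocytic and monocytic receptors, 12 of 16 were higher in GMP, 1 in MEP and 3 in neither, with a median log2 fold change of 3.54. Csf2rb and its near-identical neighbour Csf2rb2 share sequence, so their separate values (7.44 and 6.51) are uncertain. The member that ran against the list was Il1rl1, the receptor of an interleukin-1 family alarmin, at 9.4, 7.89 and 10.4 TPM in GMP and 37.2, 37.1 and 39.7 TPM in MEP. Among 6 erythroid and megakaryocytic receptors 4 were higher in GMP and 2, Epor and the transferrin receptor Tfrc (-1.49), in MEP. Of these 4 calls 2 were lost without mouse 305. Bmpr1a, 1 of them, rests on means of 0.249 and 0.026 TPM and was then not called (log2 fold change 1.30, adjusted p = 0.111).

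Platelet and megakaryocyte genes were lower in MEP than in GMP for most of the list, and 14 of 21 were higher in GMP, 2 in MEP and 5 in neither, with a median log2 fold change of 2.60. All 21 had their highest mean in CMP. Itga2b, the platelet integrin CD41 (ENSMUSG00000034664, chr11:102453297-102470122), was at 83.3, 55.7 and 99.2 TPM in GMP and 15.7, 6.59 and 9.1 TPM in MEP and at 314.5, 191.5 and 237 TPM in CMP. Pf4, platelet factor 4, was at 83.6, 40.7 and 108 TPM in GMP and 17, 6.01 and 4.36 TPM in MEP and at 669, 473 and 524 TPM in CMP. Neither gene's GMP and MEP ranges overlapped, and the MEP values were lowest in mice 305 and 309. Gp5, a platelet glycoprotein, ran the other way at 3.64, 1.87 and 3.85 TPM in GMP and 29.4, 31.8 and 25.4 TPM in MEP (log2 fold change -3.38 ± 0.25 (SE)), as did Gp1ba (-1.41), while Vwf (-0.05) and Gp9 (-0.30) were not called. MEP were sorted as CD34- and CMP and GMP as CD34+, so that gate and cell type cannot be told apart in this order.

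**Figure D3:**
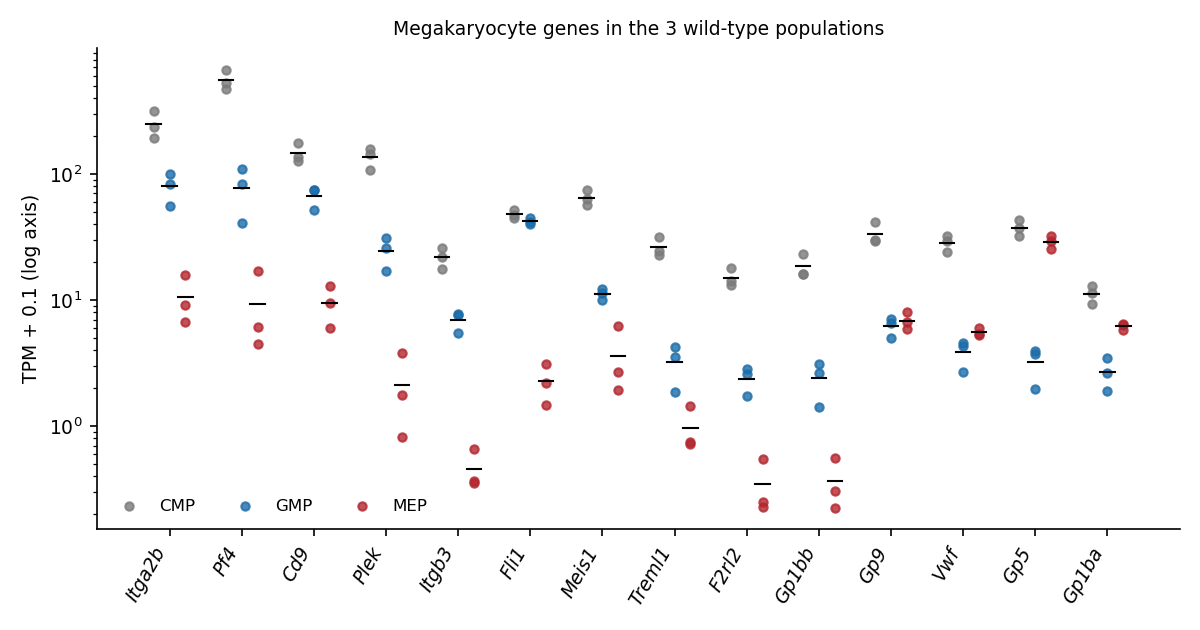
TPM + 0.1 (log axis) of 12 megakaryocyte and platelet genes and the factors Fli1 and Meis1 in single wild-type libraries of CMP (grey), GMP (blue) and MEP (red), 3 mice each, with black bars for the means. The CMP mean is highest for each gene shown, and Gp5 and Gp1ba lie higher in MEP than in GMP.

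The red cell membrane and its skeleton had the lowest median of the erythroid lists, and 1 of 22 were higher in GMP, 18 in MEP and 3 in neither, with a median log2 fold change of -5.70. Add2, beta-adducin, was at 0.527, 0.349 and 0.346 TPM in GMP and 133, 170.5 and 125.5 TPM in MEP (log2 fold change -8.69 ± 0.18 (SE), adjusted p = 1.11e-07). Rhag, the Rh-associated glycoprotein, was at 0.537, 0.402 and 0.343 TPM in GMP and 109.7, 142 and 113 TPM in MEP. Ermap, a blood group protein, was at 1.98, 1.69 and 1.58 TPM in GMP and 481, 499 and 497.5 TPM in MEP. The abundant water channel gene Aqp1 was at 5.75, 5.02 and 6.01 TPM in GMP and 807, 793 and 774.5 TPM in MEP. No GMP library reached any MEP library for these 4 genes. Slc4a1, the band 3 anion exchanger, was at 0.897, 0.304 and 0.442 TPM in GMP and 0.51, 1.1 and 0.352 TPM in MEP and was not called. The glucose transporter gene Slc2a1 was the single member higher in GMP, at 10.7, 11 and 10.8 TPM in GMP and 0.861, 0.392 and 0.248 TPM in MEP.

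Enzymes of the red cell were higher in MEP as well, and 0 of 15 were higher in GMP, 12 in MEP and 3 in neither, with a median log2 fold change of -2.57. The carbonic anhydrase gene Car1 was the most abundant of them, at 12.9, 11.7 and 14.8 TPM in GMP and 4961.5, 3521 and 5013 TPM in MEP. Car2, another carbonic anhydrase gene, was at 39, 26 and 31.8 TPM in GMP and 1928, 2185 and 1902 TPM in MEP. Blvrb, biliverdin reductase B, was at 10.7, 10.5 and 12.4 TPM in GMP and 689, 702.5 and 637 TPM in MEP. The 10 genes most changed in the MEP direction were Acsl6, an acyl-CoA synthetase (-9.16), Pklr (-9.05), Cldn13 (-9.00), Sphk1, a sphingosine kinase (-8.98), Tspan8 (-8.83), Slc25a21 (-8.71), Abcg4 (-8.70), Add2 (-8.69), Paqr9 (-8.56) and Spon2 (-8.56).

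Heme synthesis divided at its first step. Alas1, the aminolevulinate synthase that most tissues use, was at 865, 980.0 and 785 TPM in GMP and 33.1, 28.7 and 31.9 TPM in MEP, higher in GMP by a log2 fold change of 4.41 ± 0.09 (SE), and CMP was low at 81.4, 101.5 and 104 TPM. Alas2, the erythroid synthase, was still nearly silent in MEP, at 0.822, 0.499 and 0.504 TPM in GMP and 0.893, 1.81 and 1.69 TPM in MEP. The enzymes that follow were higher in MEP. Alad, aminolevulinate dehydratase, was at 41.5, 33.6 and 37 TPM in GMP and 292, 319 and 283 TPM in MEP. Cpox, coproporphyrinogen oxidase, was at 21.4, 25.5 and 19.1 TPM in GMP and 171, 217 and 159 TPM in MEP. In neither did a GMP library reach a MEP library. Over the pathway with its carriers, 1 of 14 were higher in GMP, 11 in MEP and 2 in neither, with a median log2 fold change of -1.93, and no member was highest in CMP. The members not called were the iron carrier gene Slc25a37 (0.79) and Abcb10 (-0.14).

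Genes of iron uptake and storage leaned to MEP, and 2 of 15 were higher in GMP, 9 in MEP and 4 in neither, with a median log2 fold change of -1.49. Tfr2, a relative of the transferrin receptor, was at 39.5, 31.4 and 33.3 TPM in GMP and 247, 243 and 239 TPM in MEP. Slc11a2, the iron transporter DMT1, was at 15.2, 16 and 15 TPM in GMP and 94, 110.4 and 89.3 TPM in MEP. Hfe (5.04) and Ncoa4, the receptor for the autophagy of ferritin (2.38), were higher in GMP. Globin transcripts were few and uneven. Hba-a1 was at 27.6, 7.41 and 9.09 TPM in GMP and 53.6, 184 and 49.4 TPM in MEP, and the MEP library of mouse 305 stood above the rest. Of 4 globin genes tested 3 were called higher in MEP, but without mouse 305 Hba-a2 (log2 fold change -0.72) and Hbb-bt (-0.81) were not called and Hbb-bs turned to 0.21, and without mouse 309 Hba-a2 (adjusted p = 0.12) and Hbb-bt (adjusted p = 0.156) were not called either. The alpha genes and the beta genes are near-identical copies, between which the estimated counts may be split arbitrarily.

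**Figure D4:**
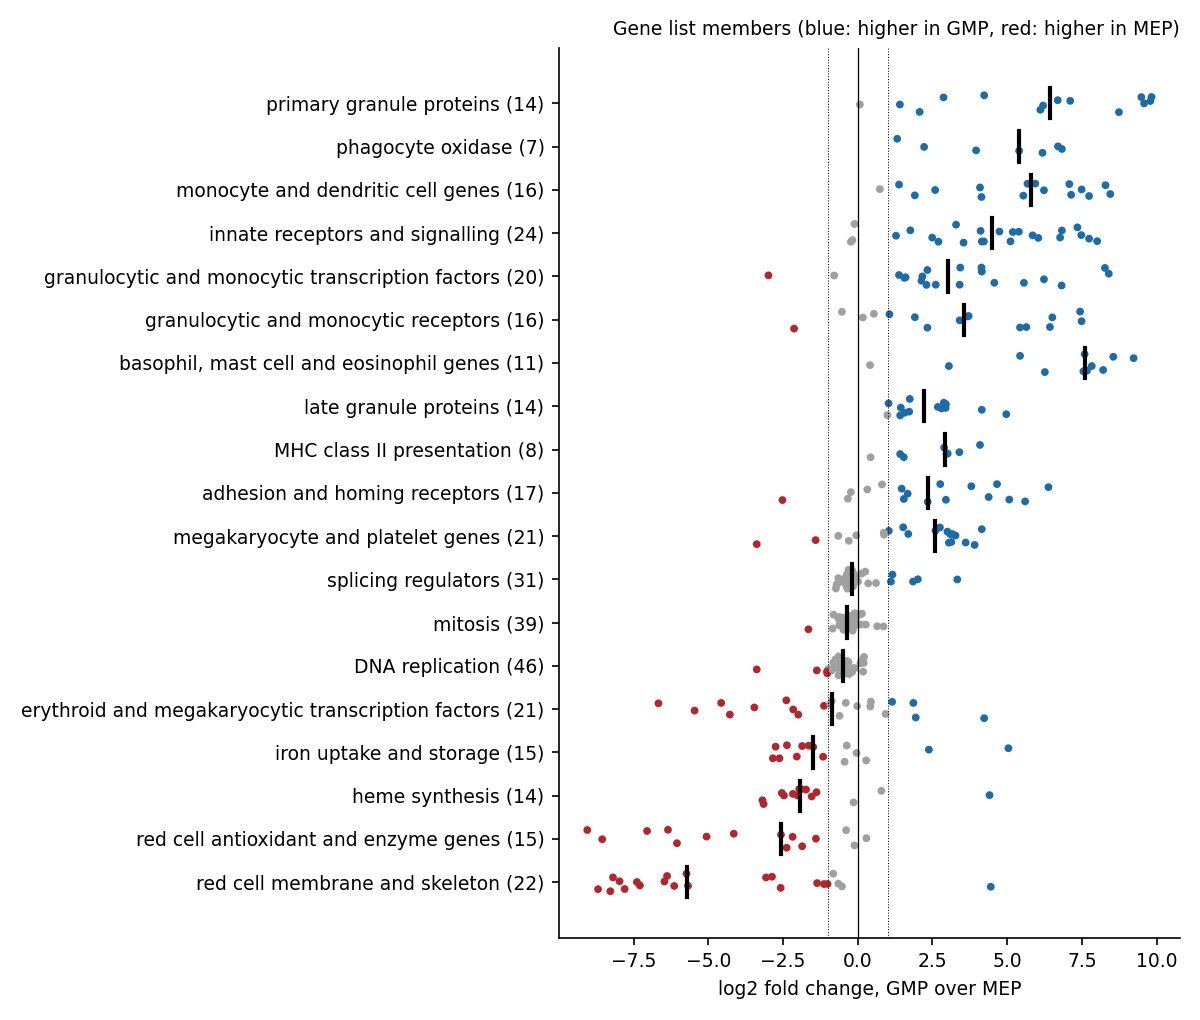
Log2 fold change of GMP over MEP (horizontal axis) for each tested member of 19 gene lists, with the number tested in brackets; blue points were called higher in GMP, red points higher in MEP, grey points neither, black bars are list medians and dotted lines mark the 2-fold threshold. Medians run from 7.59 for basophil, mast cell and eosinophil genes to -5.70 for the red cell membrane and skeleton, while mitosis and DNA replication lie close to 0.

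Genes of cell division differed little between the branches. Of 46 DNA replication genes 4 were higher in MEP and none in GMP, with a median log2 fold change of -0.48, and of 39 mitotic genes 1 was higher in MEP and none in GMP, with a median of -0.37. These counts lie below the background shares of 21.6% and 12%. Whatever its size, the sign leaned to MEP in 41 of the 46 and 33 of the 39. Ccne1, cyclin E1, which drives entry into S phase, was the most divided member at 13.9, 13.3 and 12.1 TPM in GMP and 116, 158 and 112 TPM in MEP (log2 fold change -3.38 ± 0.09 (SE), adjusted p = 2.91e-07), whereas its relative Ccne2 was at 26.2, 31.2 and 23 TPM in GMP and 31.9, 44.2 and 27.4 TPM in MEP and was not called. Cdc6, a licensing factor of replication origins, was at 38.9, 43.3 and 33.9 TPM in GMP and 86.4, 100.1 and 89.4 TPM in MEP (log2 fold change -1.37). Cenpa, the centromeric histone, was at 128.5, 122 and 127 TPM in GMP and 377, 398 and 351 TPM in MEP (log2 fold change -1.65). The origin recognition genes Orc1 and Orc6 lay at the threshold and were not called without mouse 305 (log2 fold changes -0.95 and -0.93). Among 13 G1 cyclins and CDK inhibitors 4 were higher in GMP and 1 in MEP, with Cdkn1a, the p53 target p21, at 8.3, 7.32 and 8.68 TPM in GMP and 0.863, 1.46 and 1.35 TPM in MEP. Cdk6, 1 of the 4, lay at 1 on the log2 scale without mouse 305 and Cdkn1c, the single gene higher in MEP, at -0.99 without mouse 309, and neither was then called.

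In the BCL2 family, which governs the mitochondrial path of cell death, 5 of 16 were higher in GMP, 3 in MEP and 8 in neither, with a median log2 fold change of 0.07. Bcl2, the founding survival gene, was at 17, 20.5 and 20.4 TPM in GMP and 1.91, 1.11 and 1.87 TPM in MEP (log2 fold change 3.48 ± 0.18 (SE)). The death gene Bax was at 80.8, 79.9 and 78.8 TPM in GMP and 163, 162 and 156 TPM in MEP (log2 fold change -1.16). Mcl1 (-0.11) and Bcl2l1 (0.82) were not called. Of the adhesion and homing receptors, 12 of 17 were higher in GMP, 1 in MEP and 4 in neither, with a median log2 fold change of 2.34. The integrin gene Itgam was at 16.4, 19.9 and 14.8 TPM in GMP and 0.577, 0.366 and 0.52 TPM in MEP. The integrins Itga4 (-0.33) and Itgb1 (-0.23), which hold progenitors in the marrow, were not called. The single member higher in MEP was Slamf1 (-2.52), at no more than 1.21 TPM. Lymphoid genes showed no common direction, and 5 of 12 were higher in GMP, 4 in MEP and 3 in neither, with a median log2 fold change of 0.85. Dntt, terminal transferase, was at 0.843, 1.05 and 1.11 TPM in GMP and 11.3, 2.18 and 14.5 TPM in MEP and highest in CMP at 30.3, 76.2 and 37.6 TPM, and the call of Ebf1 was lost without mouse 309 (log2 fold change -0.92, adjusted p = 0.204). Of 4 stromal and endothelial genes tested, all with means under 1 TPM, 1 was called in each direction, and that of Kdr was lost without mouse 309 (log2 fold change 0.92, adjusted p = 0.141).

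The populations also differed in which transcript of a gene they used. The share of each transcript in the TPM of its gene was compared over 37351 transcripts of 8437 genes, and a transcript was called at an adjusted p below 0.05 of edgeR's transcript usage test with a difference of at least 10 percentage points and the same sign in all 3 mice. Of these transcripts 534 (1.43%) were called, 256 with a higher share in GMP and 278 in MEP, in 432 genes (5.12%), and 247 of the 432 genes were not called in their total level. By annotated type 424 were protein coding, 41 processed transcripts, 33 retained introns and 28 targets of nonsense-mediated decay. With 2 mice in place of 3 the count was 402 without mouse 300, 302 without mouse 305 and 212 without mouse 309. A gene was taken to change its leading transcript where 1 transcript led in all 3 GMP libraries, another in all 3 MEP libraries, and both were called. Of 6308 genes with at least 5 TPM in both populations 23 (0.365%) did so, 26 without mouse 300, 15 without mouse 305 and 10 without mouse 309. In 21 of the 23 the leading transcripts began more than 200 bases apart, in 10 they encoded the same protein, and in 9 both held. The gene total was not called in 14 of the 23, was higher in GMP in 4 and higher in MEP in 5. Of the RNA-binding regulators of splicing, 5 of 31 were higher in GMP, 0 in MEP and 26 in neither, with a median log2 fold change of -0.19. Celf2 was at 102, 108 and 93.7 TPM in GMP and 11.4, 7.9 and 10.8 TPM in MEP.

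**Figure D5:**
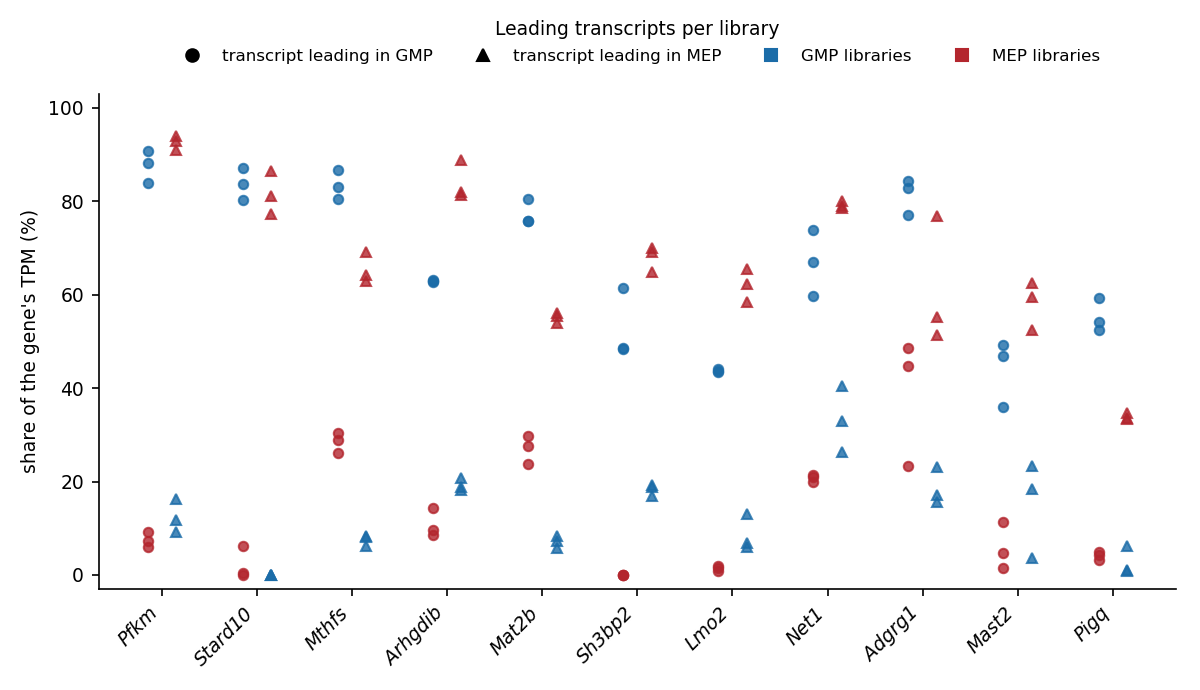
Share of the gene's TPM in percent (vertical axis) of the leading transcripts of 11 named genes in single libraries; circles are the transcript that led in GMP, triangles the one that led in MEP, blue the 3 GMP and red the 3 MEP libraries. The circles lie higher in GMP and the triangles higher in MEP in all 11 genes, and Pfkm and Stard10 lie furthest apart.

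Pfkm, the muscle-type phosphofructokinase of glycolysis (ENSMUSG00000033065, chr15:98092589-98132451), changed its leading start. Pfkm-201 made up 88.2, 83.8 and 90.8% in GMP and 7.19, 5.99 and 9.09% in MEP (adjusted p = 0.000153). Pfkm-202 made up 11.8, 16.2 and 9.22% in GMP and 92.8, 94 and 90.9% in MEP (adjusted p = 5.77e-05). Their annotated starts lie 15877 bases apart and both encode the same 2340 coding bases. The total level of the gene was at 16, 14.3 and 15.1 TPM in GMP and 97.2, 107 and 97.3 TPM in MEP. Pfkm-201 itself remained in use in MEP, at 6.99, 6.43 and 8.84 TPM against 14.1, 12 and 13.7 TPM in GMP. Pfkm-202 was at 1.89, 2.32 and 1.39 TPM in GMP and 90.25, 100.9 and 88.4 TPM in MEP. The change of leading transcript was found under all 9 alternative analyses.

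Stard10, a phospholipid transfer protein gene, changed in the same way over 3994 bases. Stard10-201 made up 80.3, 87 and 83.7% in GMP and no more than 6.25% in any MEP library. Stard10-203 made up 81, 77.2 and 86.5% in MEP and no more than 0.000574% in any GMP library. Both encode the same 873 coding bases, and the gene total was 22.6 ± 1.77 TPM in GMP and 286 ± 41.4 TPM in MEP (SD, n = 3). The change was found under 6 of the 9 alternatives. Stard10-201 was not called without mouse 305 (difference of 78.9 points in place of 81.5, adjusted p = 0.11), with transcripts under 5% of their gene removed (adjusted p = 0.105) or on the log2 ratio (adjusted p = 0.161). Sh3bp2, an adaptor of immune receptor signalling, used Sh3bp2-202 for 61.5, 48.6 and 48.4% of its output in GMP, and this transcript was listed at 0 in all 3 MEP libraries, where Sh3bp2-201, starting 17519 bases upstream, made up 64.9, 69.9 and 69.1%. The latter was not called without mouse 305 (difference of -49.0 points in place of -49.7, adjusted p = 0.0555) or mouse 309 (-48.4 points, adjusted p = 0.205). With all 3 mice, limma's diffSplice did not call Sh3bp2-201 either (adjusted p = 0.201). The change in Sh3bp2 was found under 6 of the 9 alternatives. The total of Sh3bp2 was at 15.2, 17.5 and 18.1 TPM in GMP and 13.2, 9.93 and 11.2 TPM in MEP and was not called.

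The sequences before these alternative starts are shown because each precedes a start that leads in 1 branch only. Each is the 250 bases before the RefSeq start on GRCm38.p6, 5′ to 3′ on the strand of the gene, with capitals marking short words searched on both strands. The GATA word was AGATAA, for which its close variant TGATAA was also taken, the PU.1 word was GAGGAA, the C/EBP word was TTGCNNAA and the KLF word was CCACACCC.
Pfkm-202 (MEP; chr15:98092339-98092588, forward strand): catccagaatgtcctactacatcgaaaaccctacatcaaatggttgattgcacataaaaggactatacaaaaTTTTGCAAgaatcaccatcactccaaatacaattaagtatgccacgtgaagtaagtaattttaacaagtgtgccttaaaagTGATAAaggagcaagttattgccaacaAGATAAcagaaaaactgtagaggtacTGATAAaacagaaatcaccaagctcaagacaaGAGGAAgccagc
Pfkm-201 (GMP; chr15:98108221-98108470, forward strand): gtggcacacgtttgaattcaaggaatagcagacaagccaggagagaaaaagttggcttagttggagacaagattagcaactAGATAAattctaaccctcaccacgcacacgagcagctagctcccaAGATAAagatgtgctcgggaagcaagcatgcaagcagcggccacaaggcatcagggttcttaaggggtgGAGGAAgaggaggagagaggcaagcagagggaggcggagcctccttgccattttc
Stard10-203 (MEP; chr7:101316836-101317085, forward strand): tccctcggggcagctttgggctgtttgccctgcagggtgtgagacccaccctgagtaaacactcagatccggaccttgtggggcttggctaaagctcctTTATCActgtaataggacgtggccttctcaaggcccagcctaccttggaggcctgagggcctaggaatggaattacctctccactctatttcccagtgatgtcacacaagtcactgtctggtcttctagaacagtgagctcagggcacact
Sh3bp2-202 (GMP; chr5:34543115-34543364, forward strand): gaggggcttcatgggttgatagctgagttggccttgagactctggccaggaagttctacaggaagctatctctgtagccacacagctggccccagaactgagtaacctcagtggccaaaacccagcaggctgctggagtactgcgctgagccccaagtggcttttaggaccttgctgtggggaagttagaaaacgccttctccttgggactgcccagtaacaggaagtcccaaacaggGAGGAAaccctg
The window of Pfkm-202 held GATA words 97, 70 and 44 bases before the start, a PU.1 word at 12 and a C/EBP word at 178, and that of Pfkm-201 held GATA words at 169 and 124 and a PU.1 word at 55. The Stard10-203 window held 1 GATA word at 151 and that of Sh3bp2-202 1 PU.1 word at 12. A PU.1 word also lay at 176 before Sh3bp2-203, a start with a higher mean share in MEP (27.9%) than in GMP (7.8%). Changes named below showed no common order of these words. Of starts leading in MEP, Arhgdib-203 had a GATA word at 12, but Net1-202 and Mthfs-212 had PU.1 words at 173 and 111. Of starts leading in GMP, Net1-201 and Mthfs-201 had GATA words at 235 and 138. The windows of Pigq-201, Mat2b-201, Mast2-203, Adgrg1-201 and Adgrg1-202 held none of the words. Such words are common. Of all 32851 promoters given by RefSeq, 16.6% held a GATA word, 23.3% a PU.1 word, 9.56% a C/EBP word and 3.20% a KLF word. Over the 14093 promoters of the genes tested, the shares were 10.3% for the GATA word and 22.8% for the PU.1 word. Genes higher in MEP held a GATA word in 13.8% of their promoters and genes higher in GMP in 12.2%, and a PU.1 word was held by 19.5% and 27.0%. These are counts of letters in a window and were not tested.

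Lmo2, the bridging protein of the GATA1 complex (ENSMUSG00000032698, chr2:103957986-103981878), changed its starts, and its total differed by less than 2-fold (log2 fold change -0.61 ± 0.06 (SE), adjusted p = 7.57e-05), with every MEP library above every GMP library. Transcripts from the most upstream start (near position 103957986) made up 9.47% ± 3.95 of its TPM in GMP and 74.6% ± 1.75 in MEP, and those from the start near 103970129 made up 57.6% ± 0.556 and 2.89% ± 1.01 (SD, n = 3). Lmo2-208 from the upstream start made up 12.9, 5.95 and 6.93% in GMP and 58.4, 65.4 and 62.3% in MEP (adjusted p = 8.94e-07). Lmo2-203 made up 43.4, 44.1 and 43.8% in GMP and 1.95, 0.83 and 1.48% in MEP. Neither transcript overlapped between the populations. Lmo2-203 is annotated with 660 coding bases and Lmo2-208 with 474. The change was found under 8 of the 9 alternatives, and on the log2 ratio of a transcript to the rest of its gene the adjusted p of Lmo2-208 was 0.0591. Ikzf1, the lymphoid and myeloid factor Ikaros, shifted likewise: transcripts from its most upstream start made up 5.37% ± 1.33 in GMP and 47.5% ± 1.42 in MEP. Its TPM was 105 ± 4.08 TPM in GMP and 302 ± 16.6 TPM in MEP (SD, n = 3), while its log2 fold change on counts, which are not corrected for transcript length, was -0.92 ± 0.06 (SE) and fell short of the 2-fold threshold. Both transcripts of the upstream start, Ikzf1-205 and Ikzf1-206, are annotated with only 237 and 56 coding bases. On the log2 ratio neither was called (adjusted p = 0.0737 and 0.0772), and Ikzf1-205 differed by -15.8 points, short of 20. The longer coding transcripts Ikzf1-201, Ikzf1-203 and Ikzf1-204 were not called, so a change in the main Ikaros forms was not shown.

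Where the first coding exon changed, the start of the protein changed with it. Mat2b, the regulatory subunit gene of methionine adenosyltransferase, used Mat2b-202 for 80.3, 75.8 and 75.7% in GMP and 23.8, 29.7 and 27.5% in MEP. Mat2b-201 made up 7.27, 8.29 and 5.8% in GMP and 56, 55.5 and 53.9% in MEP (adjusted p = 1.05e-08). The gene total was 98.2 ± 6.97 TPM in GMP and 123 ± 6.07 TPM in MEP (SD, n = 3) and was not called (log2 fold change -0.40). The change was found under all 9 alternatives. The coding bases that only 1 of the alternative transcripts holds are short, and are shown 5′ to 3′ on the coding strand of GRCm38 with the start codon in capitals.
Mat2b-202 (GMP; chr11:40694803-40694832, reverse strand): ATGcctgaaatgccggaggccatggaacag
Mat2b-201 (MEP; chr11:40692478-40692540, reverse strand): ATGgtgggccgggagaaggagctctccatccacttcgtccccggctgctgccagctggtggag
Both are a multiple of 3 in length, at 30 and 63 bases, so that the shared part of the protein is read in the same frame.

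The other named changes were of mixed kinds. Arhgdib, a regulator of small GTPases in blood cells, used Arhgdib-201 for 62.7, 63 and 63.2% in GMP and 14.3, 8.51 and 9.56% in MEP. Arhgdib-203 made up 20.6, 18.8 and 18.1% in GMP and 81.2, 88.7 and 82% in MEP. Their starts lie 253 bases apart, they encode the same protein, and the gene was far higher in GMP (1373, 1145.5 and 1118 TPM in GMP and 136, 83.2 and 116 TPM in MEP). In level Arhgdib-203 was also higher in GMP, at 283.5, 215.3 and 202.2 TPM against 110.4, 73.8 and 94.8 TPM in MEP. Without mouse 300 the adjusted p of Arhgdib-203 was 0.0595. Pigq, of the glycosylphosphatidylinositol anchor pathway, used Pigq-201 for 52.5, 59.2 and 54% in GMP and 4.85, 3.31 and 4.28% in MEP. Net1, a guanine nucleotide exchange factor, used the long form Net1-201 for 73.8, 67 and 59.6% in GMP and 21.1, 21.5 and 19.9% in MEP. In level Net1-201 was not lower in MEP, at 16.6, 16.6 and 15.3 TPM against 11.9, 12.1 and 8.46 TPM in GMP. Net1-202, which starts 24642 bases downstream, made up 26.2, 33 and 40.4% in GMP and 79, 78.5 and 80.1% in MEP. Neither was called without mouse 305 (adjusted p = 0.0584 and 0.0611) or mouse 309 (0.0642 and 0.0659), while the difference of Net1-201 was 46.2 and 49.1 points in place of 45.9. The calls in Mthfs, Adgrg1 and Mast2 were lost with 2 mice, at differences of like size. Mthfs-201 was not called without mouse 309 (53.9 points in place of 54.9, adjusted p = 0.0775). Mast2-201 was not called without mouse 300 (-47.5 points in place of -43.0, adjusted p = 0.0833) or mouse 309 (-45.0 points, 0.171). Adgrg1-202 was not called without mouse 300 (46.7 points in place of 42.5, adjusted p = 0.0802), mouse 305 (36.9 points, 0.0641) or mouse 309 (44.0 points, 0.292). With all 3 mice, Adgrg1-202 was also not called without the mouse block (adjusted p = 0.142) or on the log2 ratio (0.0696). Mast2-201 was then not called with coding transcripts alone (adjusted p = 0.122), with transcripts under 5% of their gene removed (0.0501) or on the log2 ratio (0.161). The change of leading transcript was found under 4 of the 9 alternatives in Adgrg1 and in Mast2, and under 7 in Mthfs. Mthfs-201, which led in GMP, made up 86.7, 80.4 and 83% in GMP and 28.8, 30.3 and 26.1% in MEP. The Mthfs transcript that led in MEP, Mthfs-212, is annotated without coding bases.

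Of 50 genes listed for known or suspected isoforms in blood, 42 could be tested and 9 had a called transcript, beside 5.12% of all genes tested, among them Ikzf1, Ldb1, Mbnl1, Epb41, Add1, Uros, Lmo2 and Hk1. Epb41, protein 4.1 of the red cell skeleton, used Epb41-202 for 0.026, 0.234 and 0.0252% in GMP and 8.17, 21.7 and 8.55% in MEP, and without mouse 305 the difference was 8.30 points, under the threshold of 10. Most of the TPM of Epb41 was assigned to Epb41-215, annotated without coding bases, at 92.6, 94.4 and 93.8% in GMP and 84, 70 and 83% in MEP. The share of Epb41-202 thus depends on how reads were split from that transcript. Uros-204 (no more than 11.2% in GMP and 26.3, 34 and 27.7% in MEP), Hk1-202 (20.4, 23.2 and 21.7% in GMP and 9.3, 7.46 and 8.89% in MEP) and Ldb1-206 (25.6, 30.1 and 32.3% in GMP and 19.9, 16.6 and 20.4% in MEP) were not called without mouse 305 (adjusted p = 0.406, 0.0603 and 0.182) or mouse 309 (0.5, 0.151 and 0.166). Add1-204 (adjusted p = 0.112) and Mbnl1-211 (0.161) were not called without mouse 309. In their total levels 16 of the 50 were higher in GMP and 18 in MEP, with a median log2 fold change of -0.22.

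The change of start in Pfkm stands beside a division of the glycolytic enzymes. Their list was added after their values had been seen and carries no weight as a test. Pkm, the pyruvate kinase of most tissues, was at 918, 848 and 820.2 TPM in GMP and 14.6, 4.44 and 8.81 TPM in MEP. Pklr, the liver and red cell pyruvate kinase (ENSMUSG00000041237, chr3:89136142-89146784), was at 0.579, 1.35 and 0.888 TPM in GMP and 264, 278 and 261 TPM in MEP. Their log2 fold changes were 6.52 ± 0.31 (SE) and -9.05 ± 0.14 (SE), and no library of one population reached the other in either gene. Among hexokinases, Hk3 was at 314, 348 and 301 TPM in GMP and 1.29, 0.422 and 0.608 TPM in MEP. Hk2 was higher in GMP too (3.62), while Hk1, at 133, 129 and 119 TPM in GMP and 343, 356 and 307 TPM in MEP, was higher in MEP. Among phosphofructokinases, Pfkp, at 65.7, 76.5 and 64.4 TPM in GMP and 12, 9.74 and 10.9 TPM in MEP, was higher in GMP, Pfkm was higher in MEP (-2.85). Pfkl was at 70, 62.6 and 59.4 TPM in GMP and 57.3, 60.1 and 53.9 TPM in MEP and was not called. Over 20 enzymes 7 were higher in GMP, 4 in MEP and 9 in neither.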

How the data were processed

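RNA was sequenced by the authors from sorted wild-type GMP, MEP and CMP of mice 300, 305 and 309 (poly-A selected TruSeq libraries, 100 bp paired-end reads, Illumina HiSeq). According to the methods of the study the reads were assigned to Ensembl release 84 transcripts (GRCm38/mm10) with kallisto 0.43.1. The deposited files give, per transcript, the estimated counts and the TPM (counts divided by effective length and scaled to a fixed total per library) that the authors obtained. Strand and the uncertainty of each estimate are not given in the sources used here, so the split of reads between transcripts enters the tests as if it were exact.

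Transcripts were matched by identifier to GENCODE vM21 (114200 of 115088), the estimated counts of a gene's transcripts were added up and rounded to whole numbers, and filterByExpr removed genes with low counts. GMP and MEP were compared with edgeR 4.0.16 (TMM scaling, quasi-likelihood F-test, R 4.3.3) with the mouse as a block, since both populations came from the same 3 animals. Deviations from the population mean correlated at 0.289, 0.454 and 0.458 within mice over 8869 genes. Between different mice they correlated at -0.442 to 0.21, the highest for GMP of mouse 309 with MEP of mouse 300. Deviations from a population mean cancel out over the mice, so positive values within mice pull those between mice below them. The values between mice are therefore no separate check of the pairing. P-values were adjusted by Benjamini-Hochberg over all genes tested and the SE is the size of the log2 fold change over the root of its F statistic. A gene was called at an adjusted p below 0.1 and a log2 fold change beyond 1. Transcript usage was tested with diffSpliceDGE at an adjusted p below 0.05 and 10 percentage points. Only the edgeR gene fit and the edgeR transcript usage fit were tested on simulated counts. A ratio against a population with 3 counts or fewer is given with a 95% counting interval or, against 0, as a bound at 3 counts. Intervals cover counting error only. With the mouse as a block, p-values rest on how the difference between GMP and MEP varied over these 3 mice. For each gene edgeR estimated that variation with information shared over all genes, so a p-value does not measure the spread over 3 mice alone. The median SE was 0.23 over called genes, and 0.09 over all tested genes, called or not, with a mean above 1 TPM.

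The genes named are the 10 largest changes in each direction among genes with a mean of at least 10 TPM in 1 population, the 5 largest changes of each list and every called member against its list's direction, and the 12 largest changes of leading transcript. Other list members named as examples were chosen after their values were seen. The comparison, the lists and the members were chosen with earlier results of these data known. Promoters come from RefSeq on GRCm38.p6. Alternatives were DESeq2 1.42.0, limma 3.58.1 (diffSplice, and a log2 ratio of a transcript to the rest of its gene, which was added after the data were seen), other scalings, no filter, an offset for transcript length, all 9 libraries in 1 fit, no mouse block, and each mouse left out. A few genes that these rules would name are not reported here. The other 13 libraries of the series were not used here.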

Additional observations from a re-analysis of the deposited data

How the results depend on the processing

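The gene counts kept their size under most settings: 3412 higher in GMP and 1826 higher in MEP with DESeq2, 4073 and 2270 without a filter, 3604 and 1888 with an offset for transcript length, 3800 and 2076 with all 9 libraries in 1 fit, and 3505 to 3737 and 1945 to 1992 when 1 mouse was left out. At the lower fold threshold of 0.5 on the log2 scale 4862 and 4115 genes were called. Without the mouse block the counts were 3524 and 1947 genes, 686 transcripts and 28 changes of leading transcript. Of the 1628 values of 163 named genes 1594 kept direction and call, and only Hbb-bs reversed, to 0.21 without mouse 305 (-1.93 without mouse 300).

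Transcript usage depended on the test. Instead of 534 transcripts, limma's diffSplice called 1821 and its log2-ratio test 164, coding transcripts alone gave 314 and a threshold of 20 points gave 252, and leaving out a mouse gave 212 to 402. Changes of leading transcript numbered 74, 7 and, with a mouse left out, 10 to 26, in place of 23. The cause of these differences was not tested. Of the 23 genes, 6 were among the 7 of the log2-ratio test. With groups of 3 no single library could be tested as an outlier, and genes near or under 1 TPM rest on few reads.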

Other observations

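Small nucleolar RNA genes, which guide the modification of ribosomal RNA and mostly lie in introns of other genes, leaned to MEP: of 117 tested, 48 were higher in MEP and 5 in GMP. This class was singled out after its values were seen, the libraries were selected for poly-A RNA, and the part of that selection in these counts was not tested. Of 622 long intergenic non-coding RNA genes 128 were higher in GMP and 89 higher in MEP. These counts lie near the shares of all genes tested, 21.6% and 12%, and mark nothing particular to the class.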
